A study of Homo sapiens with 12 samples.

Results

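Human EndoC-βH1 cells left without cytokines were compared after 48 h and 24 h of culture, which asks how stable the circular RNA (circRNA) profile was over a further day when nothing was added. The comparison holds the arrays labelled as untreated, 3 at each time, and so uses 6 of the 12 arrays of the series. The remaining 6 arrays, 3 at each time, come from cells that received the cytokines IL-1β (50 U/mL) and IFN-γ at 1000 U/mL. They enter here to share the estimate of the spread and as a scale for the size of a change. The labels of the cytokine arrays at 48 h give an exposure of 24 h, whereas the methods give 48 h. EndoC-βH1 is an established human β-cell line that makes insulin, so all 6 untreated arrays describe 1 line grown on matrigel and fibronectin. The labels do not say whether replicates came from separate cultures, and the p-values therefore measure only the spread between these samples.

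CircRNAs are closed loops that form when a downstream splice donor is joined to an upstream splice acceptor. They have no free ends, which makes them resistant to exonucleases, and they are generally longer-lived than the linear transcripts of the same genes. β-cell circRNAs have been linked to insulin secretion and to survival of the cells. The arrays were hybridized with RNA that had been digested with RNase R, an enzyme that degrades linear RNA, and carried 13617 probes for circRNA-specific junctions. The files give these probes the array maker's IDs and pair none with a host gene, a circRNA name, a position or a sequence, so circRNAs are counted here and 4 are given by ID. None of 20 marker genes of β-cells and other pancreatic or stromal cells is among the named linear mRNA probes of the array, so the cell type could not be checked against its markers.

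A probe was called detected on an array when its signal was well above the local background. This does not require a signal above the negative-control probes, the brightest of which reached a log2 signal of 3.64 to 4.08 on the untreated arrays. Of the 2042 retained probes with a mean log2 signal of 3.01 to 4.10, 1830 counted as detected on all 6 untreated arrays. Among the untreated arrays, 9144, 9734 and 9617 probes were detected at 24 h (replicates 1, 2 and 3) and 8984, 9263 and 10094 at 48 h. The groups overlapped, and the array with the most detected probes, replicate 3 at 48 h, also had the highest median processed signal, 19.8 intensity units against 11.6 to 16.1 on the other 5. That array is also the only untreated one on the second slide. Replicates 1 and 2 at 48 h shared the first slide with every array of 24 h, as inferred from where each array sat and the day it was scanned. No circRNA probe was saturated.

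Mostly the same circRNAs were detected at both times. All 3 arrays at 24 h detected 8658 probes and all 3 at 48 h detected 8563, and 8199 belonged to both sets, which is 94.7% of the 24 h set and 95.7% of the 48 h set. A further 2909 probes, 21.4% of the array, were detected on none of the 6. As in any bulk sample, a lower signal could mean fewer cells with the circRNA or less of it per cell, and these cannot be told apart. Complete loss or gain of detection was rare. Only 6 probes were detected on 3 arrays at 48 h and on 0 at 24 h, and 11 showed the opposite pattern. With the lower group set on each array to the dimmest normalized signal that still counted as detected, or to its own signal where that was higher, the 6 were at least 1.26-fold to at least 1.58-fold higher at 48 h. In the same way, the 11 were at least 1.29-fold to at least 5.25-fold lower at 48 h. At the time they were detected, the 6 had mean log2 signals of 2.47 to 2.79. All of these were under the brightest negative control of any untreated array, which was 3.64 or more. The 11 had means of 2.50 to 4.50 at 24 h, and only those of 3.86 and 4.50 were not under that level. These folds thus mostly compare signals at the level of negative controls, for probes picked by their detection. All 17 had an adjusted p of 0.999 in limma, so none of them passed the test.

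Pairs of arrays from different times were on average 0.0022 farther apart than pairs from the same time, in log2 units. The distance between a pair of arrays was taken as the median absolute difference of their normalized log2 signals over the 10211 probes that were detected on at least 3 of the 12 arrays. It averaged 0.41 over the 3 pairs at 24 h, 0.35 over the 3 pairs at 48 h and 0.38 over the 9 pairs of different times. The closest of all 15 pairs joined the times, replicate 3 at 24 h with replicate 2 at 48 h, at 0.27. The most distant pair lay within 24 h, replicates 1 and 3, at 0.53. The difference of 0.0022 gave p = 1 in an exact two-sided permutation test with 20 relabellings, a design that cannot go below p = 0.1 and so cannot pass the threshold. Leaving out replicate 3 at 24 h moved this difference to 0.062 (exact p = 0.2). Within the first slide, which leaves out replicate 3 at 48 h, the difference was -0.029 (exact p = 0.7). Replicate 1 at 24 h stood farthest from the others, with a mean distance of 0.46 to the remaining 5 arrays against 0.35 to 0.41 for each of the others.

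**Figure D1:**
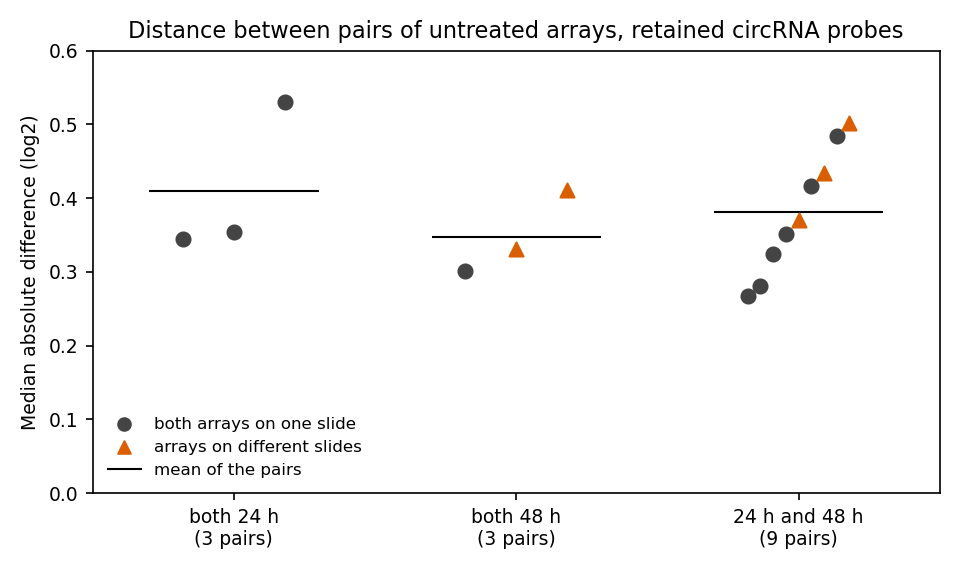
Distance between each pair of the 6 untreated arrays, as the median absolute difference of normalized log2 signal over 10211 probes (y axis), for pairs within 24 h, within 48 h and between the times (x axis); circles are pairs on 1 slide, triangles pairs on different slides, and lines the means. The 9 pairs of different times span 0.27 to 0.50 and lie inside the range of the pairs at 24 h and 48 h apart from 2 lower values.

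No circRNA probe was differentially expressed (DE) between 48 h and 24 h without cytokines. With cutoffs of 1 for the absolute log2 fold change and 0.05 for the Benjamini-Hochberg adjusted p, limma called 0 of the 10211 probes (0% of those tested), and the smallest adjusted p was 0.999. At an unadjusted p under 0.05 there were 323 probes (3.16% of those tested), 148 higher and 175 lower at 48 h. Between cytokine-treated and untreated cells, the same fit called 127 probes (1.24%) at 24 h and 100 (0.979%) at 48 h, and 19.1% and 10.1% of probes had an unadjusted p under 0.05. These comparisons share untreated arrays with the one over time. With the slide as a block the count stayed at 0, with 302 probes at an unadjusted p under 0.05. That fit gave the same values as leaving out replicate 3 at 48 h, the only untreated array on the second slide. Within the first slide alone, which also lacks that array, the count was 0 with 2 arrays against 3 (240 probes). These are therefore not separate checks. The count also stayed at 0 without any 1 untreated array. The number at an unadjusted p under 0.05 was then 966 without replicate 3 at 24 h, 200 without replicate 2 at 24 h, and 217 to 406 without any other. With arrays weighted by limma's genebygene method, 3 probes passed, 1 higher and 2 lower at 48 h, and 2037 had an unadjusted p under 0.05. Over the 12 arrays those weights ran from 0.25 to 3.41, and replicate 2 had the largest weight of the untreated arrays at each time, 3.41 at 24 h and 2.54 at 48 h.

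Differences over the further day were small for most circRNAs. The median absolute log2 fold change was 0.22, a 1.17-fold difference, and 90% of probes lay under 0.60, or 1.51-fold. In comparison, the same median was 0.38 for cytokines at 24 h and 0.27 for cytokines at 48 h. A log2 fold change of 1 or more in size was reached by 196 probes (1.92%), 86 higher and 110 lower at 48 h. Of these 196, 124 were in the dimmest of 5 equal classes by mean signal, and 54 were detected on all 6 untreated arrays. The 3 arrays at 48 h lay entirely above those at 24 h for 419 probes (4.1%) and entirely below for 420 (4.11%), together 8.22% of the probes tested. The SD over the 3 arrays had a median of 0.35 at 24 h and 0.30 at 48 h, and was smaller at 48 h for 57.4% of probes.

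**Figure D2:**
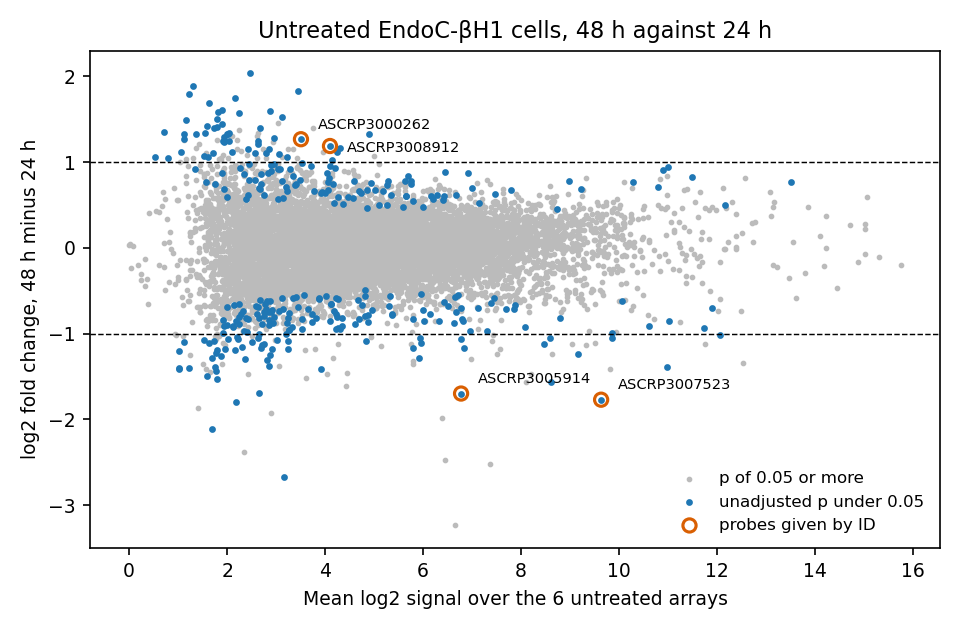
log2 fold change at 48 h minus 24 h in untreated cells (y axis) against the mean normalized log2 signal of the 6 untreated arrays (x axis) for 10211 probes; blue points have an unadjusted p under 0.05 in limma, rings mark the 4 probes given by ID, and dashed lines stand at -1 and 1. The points widen toward low signal, and 124 of the 196 probes at or beyond the lines are in the dimmest class.

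A p above the threshold does not show that a circRNA was stable, so the 95% interval of each fold change was also read. For 5721 of the 10211 probes (56%), the interval lay wholly between -1 and 1, so that a change of 2-fold or more in either direction fell outside it. For the other 4490 the interval reached -1, 1 or both (428 probes), and the arrays leave a 2-fold change possible. These are intervals of single probes, with no correction for their number. The median half-width was 0.70, or 1.62-fold. The share depended on the signal used. It was 94.4% before background subtraction, where the background left in the signal makes fold changes of dim probes smaller by construction. With the deposited log2 values, for which no background treatment is named, it was 95.2%. Neither value shows that more probes were stable. Within the first slide the share was 37.1%, and without any 1 untreated array it lay between 37.9% (without replicate 3 at 24 h) and 49.9%.

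The precision followed the brightness of the probe. When the 10211 probes were divided into 5 classes by mean signal, the share with an interval inside -1 to 1 was 21.9% in the dimmest class and 50.8%, 64.7%, 72.3% and 70.4% in the next 4. The median SD within a time was 0.55 in the dimmest class and 0.28 in the brightest. In the dimmest class, 12.1% of probes were detected on all 6 untreated arrays, and 6.75% had an unadjusted p under 0.05. From the next class up, that share was between 1.62% and 2.74%. Among the 8199 probes detected on all 6 arrays, 65.7% had an interval inside -1 to 1, against 16.6% of the 2012 others.

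**Figure D3:**
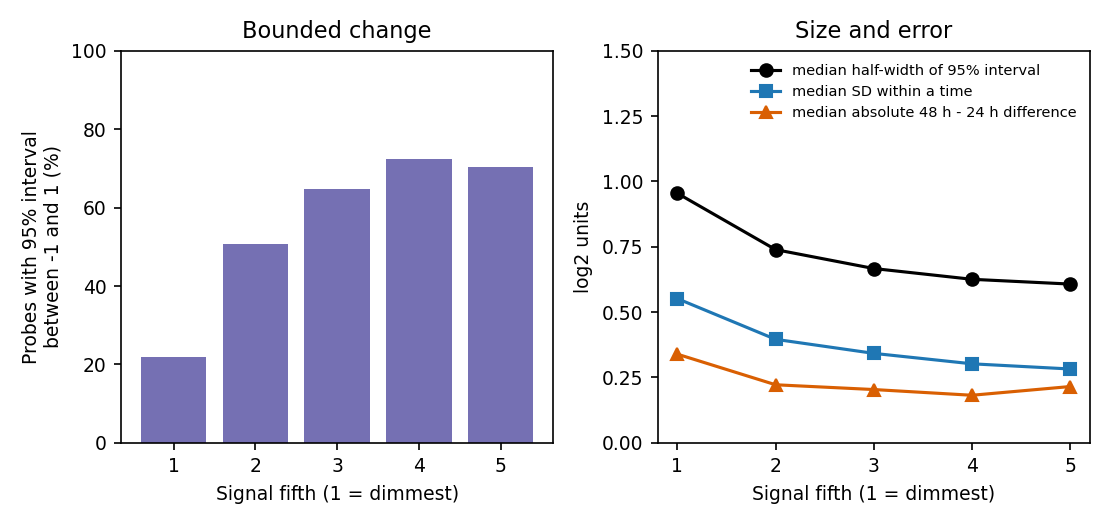
Left, percentage of probes whose 95% interval for the 48 h minus 24 h log2 difference lies between -1 and 1 (y axis) in 5 classes of rising mean signal (x axis); right, for the same classes, the median half-width of that interval, the median SD within a time and the median absolute difference, in log2 units. In every class the median difference is smaller than the median SD within a time, at 0.34 against 0.55 in the dimmest and 0.22 against 0.28 in the brightest. Means of 3 arrays vary less than single arrays, so a smaller value does not by itself show stability.

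Among the 8199 circRNA probes detected on all 6 untreated arrays, 351 (4.28%) lay wholly higher at 48 h and 333 (4.06%) wholly lower, close to the 4.1% and 4.11% of all probes tested. Of these, 5 and 20 had a log2 fold change of at least 1 in size. The largest fitted differences of these, 2 in each direction, are given by ID, and none passed the test. They were picked for the size of this difference and its direction, so their values describe them and support nothing further. Probe ASCRP3007523 had the largest negative difference among them. Its log2 signal was 10.44, 11.18 and 9.95 at 24 h and 9.06, 8.68 and 8.52 at 48 h. All 3 arrays at 48 h were lower than those at 24 h, and the groups were separated by 0.89. The log2 fold change was -1.77 (standard error 0.51, 95% interval -2.87 to -0.67, adjusted p = 0.999 from limma).

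Probe ASCRP3005914 came next, with a log2 signal of 7.56, 8.21 and 7.12 at 24 h and 6.35, 5.65 and 5.79 at 48 h. Its log2 fold change was -1.70 (standard error 0.58, 95% interval -2.96 to -0.44, adjusted p = 0.999 from limma). It was -1.29 before background subtraction and -0.96 with normexp background correction, which adds an offset of 50 intensity units. The offset, like background left in the signal, makes fold changes of dim probes smaller by construction. At 24 h both probes were highest on replicate 2 and lowest on replicate 3. With cytokines, the 48 h minus 24 h differences were 0.04 for ASCRP3007523 (adjusted p = 0.980 from limma) and -0.10 for ASCRP3005914 (adjusted p = 0.958 from limma). The means of ASCRP3007523 were 9.38 ± 1.09 (SD, n = 3) at 24 h and 9.42 ± 0.68 (SD, n = 3) at 48 h, and those of ASCRP3005914 were 6.12 ± 1.38 and 6.02 ± 0.73 (SD, n = 3 each). Both means at 24 h rest in part on 1 low array, replicate 1. ASCRP3007523 had 8.11 there against 10.05 and 9.97 on replicates 2 and 3, and ASCRP3005914 had 4.60 against 6.50 and 7.28. The cytokine arrays of the 2 times were also on different slides, so slide and time cannot be told apart for them. The change over time differed between cytokine-treated and untreated cells by 1.81 for ASCRP3007523 (adjusted p = 0.475 from limma) and by 1.60 for ASCRP3005914 (adjusted p = 0.515 from limma), and neither difference passed. Both probes were picked for their untreated difference, which is subtracted in this comparison. The 1.81 and 1.60 are therefore no separate test of these probes.

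On the positive side, probe ASCRP3000262 had a log2 signal of 2.47, 3.32 and 2.83 at 24 h and 4.26, 4.06 and 4.10 at 48 h. It is a dim probe, and its groups were separated by 0.74. All 3 values at 24 h were under the brightest negative control of any untreated array, which was 3.64 or more. The log2 fold change was 1.27 (standard error 0.42, 95% interval 0.35 to 2.18, adjusted p = 0.999 from limma). It was 0.52 before background subtraction and 0.22 with normexp and its offset, both of which shrink fold changes of dim probes by construction. Probe ASCRP3008912 had a log2 signal of 3.32, 3.35 and 3.86 at 24 h and 4.79, 4.42 and 4.87 at 48 h, with a log2 fold change of 1.19 (standard error 0.35, 95% interval 0.42 to 1.95, adjusted p = 0.999 from limma). Before background subtraction it was 0.58, and with normexp 0.28. Its values on replicates 1 and 2 at 24 h were under the brightest negative control of those arrays, 4.08 on each. The fold changes of both probes thus rest on values at 24 h near the level of negative controls, which were normalized with all spots of control type 0. Both probes were brighter on the cytokine arrays at 24 h, with means of 5.37 ± 0.40 (SD, n = 3) and 6.49 ± 0.78 (SD, n = 3). ASCRP3008912 was called between cytokine-treated and untreated cells at both times, with log2 fold changes of 2.98 at 24 h and 1.93 at 48 h. ASCRP3000262 was called at 24 h, with 2.50, and had 0.35 at 48 h. Each of these differences uses the untreated arrays of its time, and so shares arrays with the comparison over time.

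**Figure D4:**
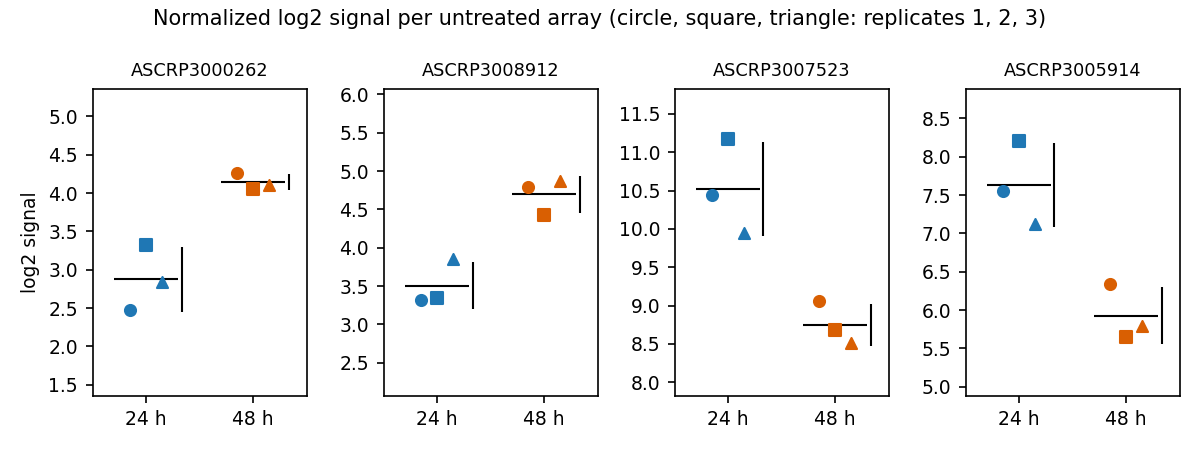
Normalized log2 signal (y axis) of the 4 probes given by ID on each untreated array at 24 h and 48 h (x axis); markers are the 3 replicates, horizontal lines the means and vertical lines 1 SD either side. The 3 arrays at 48 h lie above those at 24 h for ASCRP3000262 and ASCRP3008912 and below them for ASCRP3007523 and ASCRP3005914, none of which passed the test.

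The probes called between cytokine-treated and untreated cells were also read over time in untreated cells. For the 127 called at 24 h, the median absolute log2 fold change over time was 0.29, against 0.22 over all probes, and the largest was 1.89. Of the 127, 19 had an unadjusted p under 0.05 over time, which is 14.96%, against 3.16% of all probes, and 9 (7.09%) had a log2 fold change of at least 1 in size, against 1.92%. For the 100 called at 48 h the median was 0.26 and the largest 1.19, with 5 probes at an unadjusted p under 0.05 and 3 at a log2 fold change of at least 1 in size. The 127 and the 100 were chosen on arrays that include the untreated arrays of 24 h and of 48 h, respectively, which the comparison over time uses as well. These values are therefore a description, and no test was made of them. None of these probes was called over time, as was none of the 10211.

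The further day of culture was also compared between untreated and cytokine-treated cells, which share no array. In cytokine-treated cells, 0 probes were called between 48 h and 24 h (0% of those tested), but 1218 (11.9%) had an unadjusted p under 0.05, with a median absolute log2 fold change of 0.31. All cytokine arrays at 48 h were on the second slide and all at 24 h on the first, so slide and time cannot be told apart there. The difference between the changes, tested as an interaction in limma, passed for 0 probes, although 1035 (10.1%) reached an unadjusted p under 0.05. Without replicate 3 of the untreated arrays at 24 h it passed for 3 probes, all with a lower change in cytokine-treated cells. The median half-width of the 95% interval of this difference was 0.99, or 1.98-fold.

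The array also carries probes for linear mRNAs, with 10 spots each, and 68 of them were used and named through their RefSeq accessions. They were fitted together with the circRNA probes. The RNA had been digested with RNase R, which degrades linear RNA. A difference in their signal could thus come from the mRNA level in the cells or from how much linear RNA was left after digestion. These cannot be told apart, so the values below describe probe signals. Of the 68, 33 were higher and 35 lower at 48 h, and 0 passed the test (0% of the 10279 rows of that table were called), with 1 at an unadjusted p under 0.05. That one was CHAF1B, a subunit of the chromatin assembly factor that loads histones onto newly replicated DNA. It falls outside the rule for named genes and was chosen after its values were seen. Its log2 signal was 2.96, 2.22 and 2.15 at 24 h and 1.89, 1.27 and 1.69 at 48 h (adjusted p = 0.997 from limma). No fold is given, since all 6 values were under the brightest negative control of any untreated array, which was 3.64 or more. Of all 10279 rows, 3.17% had an unadjusted p under 0.05.

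On every array of the series, 9 of these 68 exceeded each of the 60 negative-control probes, and these 9 are called bright. PFN1, which encodes the actin-binding protein profilin, was one of them. Its log2 signal was 11.89, 12.03 and 11.75 at 24 h and 11.91, 11.55 and 11.40 at 48 h. These ranges overlap, with a log2 fold change of -0.27 (95% interval -1.26 to 0.71, adjusted p = 0.997 from limma). The value depended on the scaling, and was -0.79 with the 75th percentile and -0.62 with cyclic loess. It was also -0.42 without replicate 1 at 48 h and -0.16 without replicate 3 at 48 h or within the first slide. ACTG1, cytoplasmic γ-actin, had a log2 signal of 5.65, 5.90 and 6.57 at 24 h and 6.41, 6.56 and 6.33 at 48 h, with a log2 fold change of 0.39 (standard error 0.28, adjusted p = 0.997 from limma). It was 0.20 without replicate 1 at 24 h and 0.66 without replicate 3 at 24 h. The third actin-related probe, ACTB, was not above the negative controls on every array and had a log2 fold change of -0.06. Of the 3 probes of this group, 1 was higher, 2 were lower and 0 passed.

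GAPDH, the glycolytic enzyme glyceraldehyde-3-phosphate dehydrogenase, is often used as a reference gene. Its log2 signal was 7.76, 7.60 and 7.52 at 24 h and 7.86, 7.59 and 7.47 at 48 h, which is nearly the same set of values. The log2 fold change was 0.01 (95% interval -0.42 to 0.44), and its sign turned with other scalings, to -0.042 with the 75th percentile and -0.0074 with cyclic loess. PGK1, another glycolytic enzyme, was at or under the brightest negative control on at least 1 array and had 0.15. Of the ribosomal protein probes, only RPLP1 was above the negative controls on every array. It had a log2 fold change of -0.31, which ran from -0.53 (without replicate 1 at 48 h) to -0.18 (without replicate 2 at 48 h). The probes of RPS18, RPL10 and the translation factors EIF3D and EIF5B were not above the brightest negative control, which lay between 3.64 and 4.08 on the untreated arrays, and no fold is given for them. None of these 7 probes passed the test.

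Of the other bright linear probes, POLR2A, the largest subunit of RNA polymerase II, had a log2 signal of 7.73, 7.50 and 7.04 at 24 h and 7.19, 6.98 and 6.97 at 48 h. The log2 fold change was -0.37 (95% interval -0.95 to 0.20, adjusted p = 0.997 from limma), and the ranges overlapped. It was -0.22 without replicate 1 at 24 h and -0.57 without replicate 3 at 24 h. MTX1, a mitochondrial outer membrane protein, had -0.36, RHOH -0.22, and SERPIND1, the plasma protease inhibitor heparin cofactor II, -0.16. Single arrays moved these values. Without replicate 1 at 24 h, MTX1 had -0.18, RHOH -0.06 and SERPIND1 -0.02, and without replicate 3 at 24 h they had -0.53, -0.41 and -0.33. RACK1, a scaffold protein of the ribosome, had -0.01, and its sign turned to 0.16 within the first slide and with the slide as a block. At 24 h, POLR2A, MTX1, RHOH, SERPIND1, RPLP1 and GAPDH, 6 of the 9, were highest on replicate 1 and lowest on replicate 3. None of the 9 bright probes had separate groups, 7 were lower (RACK1 by only 0.01) and 2 higher at 48 h. Their median log2 fold change was -0.22 against -0.01 for all 68. The rest of the 68 were not above all negative controls on every array, so the 2 medians are not a like comparison. For 6 of the 9, the 95% interval lay between -1 and 1.

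**Figure D5:**
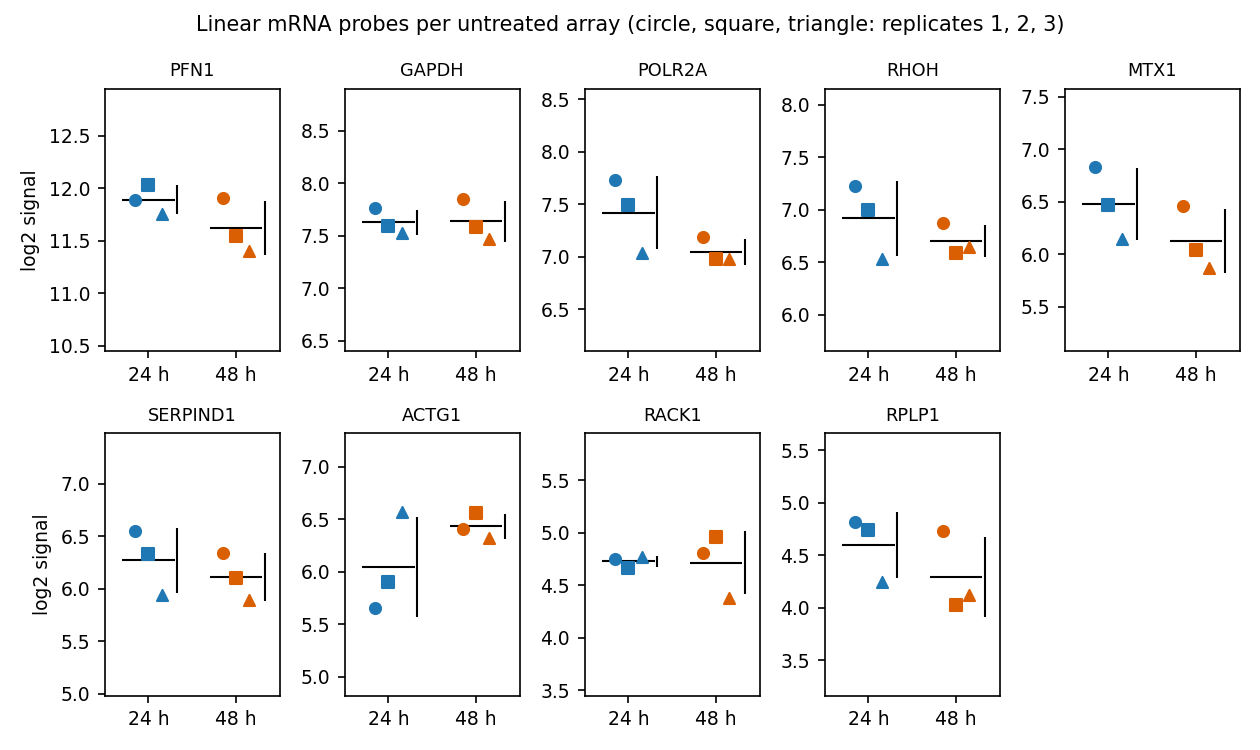
Normalized log2 signal (y axis, the same span in every panel) of the 9 linear mRNA probes brighter than all negative controls, on each untreated array at 24 h and 48 h (x axis); markers are the 3 replicates, horizontal lines the means and vertical lines 1 SD either side. The arrays of the 2 times overlap for each of the 9 genes.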

How the data were processed

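The authors enriched circRNAs by RNase R digestion, made fluorescent cRNA, hybridized it to a circRNA array and extracted the images with Agilent Feature Extraction 11.0.1.1. They deposited the scanner output of each array, which holds spot intensity, local background, detection flags coded 0 or 1 and a processed signal with the background subtracted, and a table of normalized log2 values for which they name only quantile normalization.

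The processed intensities of the 13617 circRNA probes were log2 transformed and quantile normalized here. A probe entered if 3 or more of the 12 arrays had it well above background. All 12 arrays were fitted together in limma 3.58.1 (R 4.3.3), with 1 mean per group. DE required an absolute log2 fold change of 1 and an adjusted p under 0.05. Linear mRNA probes were averaged over uniform spots after normalization over all spots of control type 0, leaving out 1 of 70 probes without a uniform spot on some arrays and 1 that is not reported here, and adjusted with the circRNA probes. Names came from the RefSeq table of GRCh38.p14, in which all 68 accessions used matched. The 4 probes given by ID are the 2 largest differences in each direction among probes detected on all 6 untreated arrays whose groups did not overlap. Linear mRNAs are named where they exceeded all negative controls on all 12 arrays, and the others of their functional lists after values were seen. The rules, lists and comparison were chosen with earlier results of these data known. Arrays are limited in precision by their number, 3 per group. The slide of each array was inferred from its position and scan day. Normalizations, filters, slide, replicate number and left-out arrays were varied, as given in the closing section. Figures were drawn with matplotlib 3.10.9. Probe sequences and positions were not used here.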

Additional observations from a re-analysis of the deposited data

How the results depend on the processing

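The count of 0 DE probes was unchanged under 25 of 26 alternatives, and was 3 with arrays weighted by limma's genebygene method. The cause was not tested. The alternatives are not all separate checks. For the change over time in untreated cells, the slide as a block gave the same values as leaving out replicate 3 at 48 h. The count ran from 0 to 0 without any 1 untreated array. The share of probes with an interval between -1 and 1 was 94.4% with the signal before background subtraction and 97.0% with normexp. Background left in the signal and the normexp offset of 50 make fold changes of dim probes smaller by construction. These 2 shares therefore do not show that more probes were stable. The share was 95.2% with the deposited log2 values, for which no background treatment is named, and 37.1% within the first slide, which has fewer arrays. Without 1 untreated array it was 37.9% to 49.9%. The difference of the distances between and within times, 0.0022, had the opposite sign before background subtraction (-0.0014), over probes detected on all 12 arrays (-0.0019), with 1 minus Pearson's r (-0.00071) and within the first slide (-0.029), and ran from -0.029 to 0.062 without 1 array. The interaction was called for 0 probes under each planned fit other than leaving out 1 array, where it ran from 0 to 3. Of the linear mRNA probes, 0 were called under each alternative run. GAPDH turned to -0.042 with the 75th percentile and -0.0074 with cyclic loess and ran from -0.097 to 0.093 without 1 array. RACK1 turned to 0.16 with the slide as a block and within the first slide and ran from -0.13 to 0.16 without 1 array. PFN1, -0.27, was -0.79 with the 75th percentile and -0.62 with cyclic loess, and MTX1, RHOH and SERPIND1 ran from -0.53 to -0.18, from -0.41 to -0.06 and from -0.33 to -0.02 without 1 array. Same-numbered untreated arrays had deviations from their group means that correlated at r = 0.04, -0.02 and 0.0017, and replicate numbers were therefore not taken to pair the arrays. With the replicate number as a block, 0 probes were called, with 314 at an unadjusted p under 0.05; the share of intervals between -1 and 1 was 55.2%, and 0 linear mRNA probes and 0 interactions were called. Signal over background limits the dim probes, where a 2-fold change was often left possible.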
